A study of Mus musculus with 6 samples.

Results

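The ATF4 amino acid response genes described here are 10 genes, Trib3, Asns, Slc7a5, Slc7a11, Cth, Mthfd2, Ddit3, Chac1, Psat1 and Sesn2, chosen by name as known targets of the transcription factor ATF4. They were chosen with earlier results of these data known, so the shares over all genes set beside theirs below are a description. Each was represented by a probe set that names no other gene, and where a gene had more than 1 such probe set by the one with the highest mean signal. All 10 were found among the 22180 genes measured this way, and all 10 were among the 15526 genes kept for testing, those outside the 30% with the lowest mean signal. Signals are log2 values, so a difference of 1 is a 2-fold difference in signal.

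The study hybridised RNA from mouse hepatic stellate cells to 6 Affymetrix arrays. Each array held a pool of cells from 5 mice, and each combination of 2 ages and 3 states had 1 array. PRI-724 cells, from old mice (6 to 9 months) or young mice (8 to 11 weeks), had been cultured for more than 20 days and given C-82 at 10 µM. PRI-724, whose active form is the compound C-82, keeps beta-catenin from using CBP as a coactivator. How long the cells were exposed is not stated in the labels. Vehicle cells of both ages had been cultured as long and given DMSO. Quiescent cells of both ages had been plated for 12 h. All 6 samples were grown on uncoated plastic in high-glucose DMEM with serum, pyruvate and non-essential amino acids, so every state had the same medium but not the same time in it. Stellate cells store vitamin A around the liver's sinusoids, and long culture on plastic turns them into myofibroblast-like cells, which are a model of activation in injured liver and not the same as cells activated in vivo.

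ATF4 is a basic leucine zipper transcription factor at the centre of the integrated stress response. When amino acids run short, unfolded proteins build up or haem is lacking, kinases such as GCN2 and PERK phosphorylate the initiation factor eIF2 alpha. Most translation then slows, while the ATF4 message is translated more, so ATF4 activity can change with little change in its mRNA. ATF4 binds C/EBP-ATF response elements as a dimer with partners such as C/EBP proteins and raises genes for amino acid uptake and synthesis, tRNA charging and glutathione supply, and, under lasting stress, genes tied to cell death. Collagen, the main product of activated stellate cells, is rich in proline and glycine, amino acids whose synthesis is served by ATF4 targets.

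The C/EBP-ATF element has the core TGATGNAA, where N is any base. Promoter windows from 250 bases before to 50 bases after the start site were taken from RefSeq (GRCm38.p6), which held windows for 8 of the 10 genes, with 2 windows for Psat1. Slc7a5 and Cth had no entry. TGATGNAA, searched on both strands, was present in 4 of these 9 windows and in 3.97% of all 32851 windows of the same length. The 4 windows with a match are shown because they belong to genes whose values follow, with the matched bases in capitals (matches that begin with TT are the element read from the other strand). They are written 5′ to 3′ on the strand of the gene.
Slc7a11: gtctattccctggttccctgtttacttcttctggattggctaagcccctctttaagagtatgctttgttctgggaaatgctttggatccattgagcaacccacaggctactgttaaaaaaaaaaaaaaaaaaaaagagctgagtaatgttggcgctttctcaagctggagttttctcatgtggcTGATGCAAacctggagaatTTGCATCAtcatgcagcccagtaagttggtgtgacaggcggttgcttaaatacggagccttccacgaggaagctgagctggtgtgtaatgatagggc
Asns: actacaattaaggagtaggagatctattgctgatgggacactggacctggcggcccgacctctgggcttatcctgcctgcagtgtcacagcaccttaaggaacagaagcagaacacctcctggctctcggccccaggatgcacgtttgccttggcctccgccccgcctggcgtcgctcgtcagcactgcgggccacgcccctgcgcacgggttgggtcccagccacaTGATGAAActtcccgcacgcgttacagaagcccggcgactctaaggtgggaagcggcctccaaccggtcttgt
Chac1: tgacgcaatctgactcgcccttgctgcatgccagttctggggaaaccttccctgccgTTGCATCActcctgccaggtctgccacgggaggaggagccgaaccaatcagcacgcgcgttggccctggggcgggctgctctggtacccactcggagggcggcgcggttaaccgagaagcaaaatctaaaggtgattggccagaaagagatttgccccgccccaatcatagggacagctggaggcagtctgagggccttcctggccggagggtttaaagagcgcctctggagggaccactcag
Trib3: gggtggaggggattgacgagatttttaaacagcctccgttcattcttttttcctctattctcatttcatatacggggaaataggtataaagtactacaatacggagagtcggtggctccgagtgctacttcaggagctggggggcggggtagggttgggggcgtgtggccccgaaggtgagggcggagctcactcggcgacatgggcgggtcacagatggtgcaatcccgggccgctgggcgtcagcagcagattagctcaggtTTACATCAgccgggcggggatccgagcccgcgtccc
The Slc7a11 window, at chr3:50443564-50443863 on the minus strand, held 2 matches, TGATGCAA beginning 66 bases before the start site and TTGCATCA beginning 47 bases before it. Only 23 of all windows (0.0700%) held 2 or more. Asns had TGATGAAA from 23 bases before its start site (chr6:7693160-7693459, minus strand). Chac1 had TTGCATCA from 193 bases before its start (chr2:119350992-119351291, plus strand), and Trib3 had TTACATCA from 14 bases after its start (chr2:152344011-152344310, minus strand). A looser form, TGANGNAA, which contains the first, occurred in 16.5% of all windows and in the same 4 windows of these genes, where it added TGACGCAA at the 5′ end of the Chac1 window. A match describes these letters only, and windows without one (Sesn2, Mthfd2, Ddit3 and Psat1) say nothing of elements elsewhere in those genes.

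The young PRI-724 array stood apart, with an interquartile range of 1.71 log2 units over the tested genes, against 2.11 to 2.43 on the other 5. The cell type markers also moved with the states. The summed linear signal of 8 stellate markers was 4041 and 1881 on the old and young PRI-724 arrays, 6020 and 4587 on the vehicle arrays and 1558 and 1623 on the quiescent arrays. The 10 macrophage markers summed to 567 and 555 on the old and young PRI-724 arrays, 3924 and 5360 on the vehicle arrays, and 7546 and 3611 on the quiescent arrays. The 8 sinusoidal endothelial markers summed to 1133 and 568 with PRI-724, 6758 and 8526 with vehicle, and 3781 and 12454 in quiescent cells, each time with the old array first. The 8 hepatocyte markers summed to 2267 and 1067 with PRI-724, 1918 and 380 with vehicle, and 10021 and 1217 in quiescent cells in the same order. In such bulk samples, fewer cells of a type and less RNA per cell cannot be told apart. With 1 array in each group, no spread within a group is known, and the p-values below come from limma fitted over all 15526 genes, in which the error of a state comparison (n = 2 age pairs) is the disagreement between the ages over all 3 states, moderated by that of the other genes. The standard errors (SE) are those of the same fit, and the number of arrays limits the precision. Adjusted p-values are Benjamini-Hochberg values over all tested genes, and genes under 0.05 are called.

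In PRI-724 cells all 10 genes had more signal than in vehicle cells of the same age, at both ages, whereas 25.8% of all tested genes were higher at both ages. Cth, Trib3 and Slc7a5 passed the test, with folds of 5.16, 3.09 and 3.09. The median difference over the 10 genes was 1.30, or 1.35 in the old pair and 1.23 in the young pair, and the median of all tested genes was -0.05. Vehicle cells had the lowest mean of the 3 states for 8 of the 10 genes, and PRI-724 cells the highest for 8 of the 10.

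**Figure D1:**
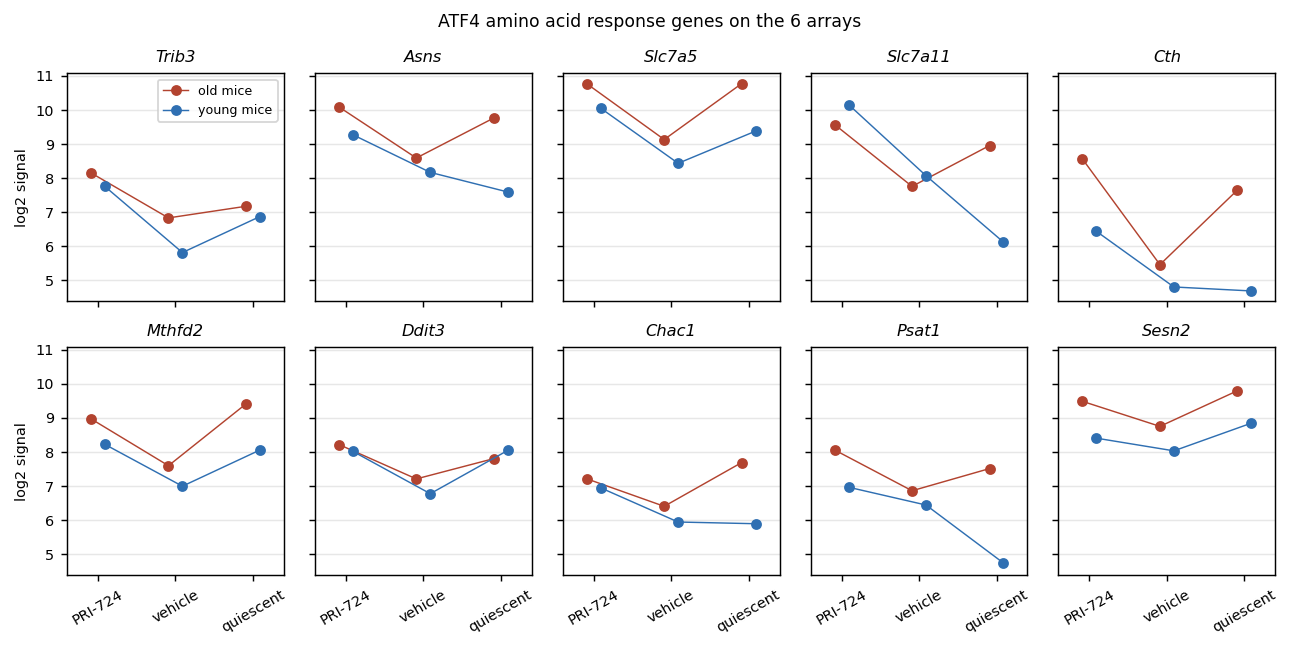
Log2 signal (y axis) of the 10 genes, 1 panel each, in PRI-724, vehicle and quiescent cells (x axis), with old cells in red, young cells in blue and 1 point for each array. In every panel the PRI-724 point lies above the vehicle point of the same age, and the young quiescent point of Asns, Slc7a11, Cth, Chac1 and Psat1 lies far below the old one.

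Among the regulators, Trib3 encodes a pseudokinase that ATF4 induces and that restrains ATF4 in turn. Trib3 (probe set 17392925) read 8.16 and 7.76 on the old and young PRI-724 arrays, 6.84 and 5.82 on the vehicle arrays, and 7.18 and 6.87 on the quiescent arrays. Both PRI-724 arrays stood above the other 4. PRI-724 minus vehicle was 1.63 ± 0.29 (SE, n = 2 pairs; limma adjusted p = 0.0229), 1.32 in the old pair and 1.94 in the young pair. Ddit3, or CHOP, is a transcription factor of the same stress response that promotes cell death when stress lasts. Ddit3 (probe set 17237978) read 8.22 and 8.02 on the old and young PRI-724 arrays, 7.21 and 6.78 on the vehicle arrays, and 7.81 and 8.05 on the quiescent arrays. Its PRI-724 and quiescent arrays overlapped and both vehicle arrays were lower, and PRI-724 minus vehicle was 1.13 ± 0.29 (limma adjusted p = 0.0903), which did not pass.

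The 2 transporter genes encode light chains that pair with the same heavy chain, the product of Slc3a2. Slc7a5, or LAT1, imports large neutral amino acids such as leucine. Slc7a5 (probe set 17513641) read 10.77 and 10.05 on the old and young PRI-724 arrays, 9.13 and 8.44 on the vehicle arrays, and 10.78 and 9.38 on the quiescent arrays. Vehicle arrays were the lowest at both ages, and the PRI-724 minus vehicle differences of the old pair (1.64) and the young pair (1.62) were nearly equal, with a mean of 1.63 ± 0.26 (limma adjusted p = 0.0123). Slc7a11, or xCT, imports cystine in exchange for glutamate and so feeds glutathione synthesis. Slc7a11 (probe set 17405082) read 9.57 and 10.16 on the old and young PRI-724 arrays, 7.76 and 8.07 on the vehicle arrays, and 8.96 and 6.12 on the quiescent arrays. Both PRI-724 arrays were above the other 4, and the 2 quiescent arrays were 2.83 apart. PRI-724 minus vehicle was 1.95 ± 0.66, a 3.87-fold difference, and did not pass (limma adjusted p = 0.195). It was 1.82 in the old pair and 2.09 in the young pair, and the SE also carries the disagreement of the quiescent arrays. With the quiescent arrays out of the fit, the limma adjusted p of Slc7a11 was 5.71e-06, and that of Asns and Mthfd2 was 0.00648 and 0.0206. The error in that fit is only the disagreement of the 2 age pairs over these 2 states, moderated by that of the other genes. With so few arrays these p-values lean heavily on the other genes, and a small one is no firm result for a single gene.

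Asns, asparagine synthetase, makes asparagine from aspartate and glutamine. Asns (probe set 17464718) read 10.09 and 9.28 on the old and young PRI-724 arrays, 8.59 and 8.17 on the vehicle arrays, and 9.77 and 7.60 on the quiescent arrays. PRI-724 and vehicle arrays did not overlap, the old quiescent array lay between the PRI-724 arrays, and the young quiescent array lay below both vehicle arrays. PRI-724 minus vehicle was 1.30 ± 0.39 (limma adjusted p = 0.136), 1.5 in the old pair and 1.11 in the young pair. Psat1, phosphoserine aminotransferase, carries out the middle step of serine synthesis. Psat1 (probe set 17363204) read 8.06 and 6.97 on the old and young PRI-724 arrays, 6.86 and 6.45 on the vehicle arrays, and 7.51 and 4.74 on the quiescent arrays. The young quiescent array was the lowest by 1.70, and the difference between PRI-724 and vehicle was 0.86 ± 0.47 (limma adjusted p = 0.420), 1.20 in the old pair and 0.52 in the young pair.

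Mthfd2 is a mitochondrial folate enzyme that passes on the one-carbon unit released from serine. Mthfd2 (probe set 17468143) read 8.97 and 8.22 on the old and young PRI-724 arrays, 7.60 and 7.0 on the vehicle arrays, and 9.41 and 8.06 on the quiescent arrays. The vehicle arrays were the 2 lowest, and PRI-724 minus vehicle was 1.30 ± 0.29, a 2.46-fold difference just outside the threshold (limma adjusted p = 0.0564). Cth, cystathionine gamma-lyase, makes cysteine from cystathionine. Cth (probe set 17411420) read 8.56 and 6.44 on the old and young PRI-724 arrays, 5.46 and 4.81 on the vehicle arrays, and 7.65 and 4.69 on the quiescent arrays. Its young vehicle and young quiescent signals were near 4.70, the mean below which genes were left out of testing. The 2 PRI-724 arrays were above both vehicle arrays, and PRI-724 minus vehicle was 2.37 ± 0.45 (limma adjusted p = 0.0294), 3.10 in the old pair and 1.63 in the young pair, which ranked 6 from the top among the 15526 genes.

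Chac1 degrades glutathione inside the cell and is among the genes that ATF4 and CHOP raise together. Chac1 (probe set 17374807) read 7.22 and 6.95 on the old and young PRI-724 arrays, 6.41 and 5.95 on the vehicle arrays, and 7.69 and 5.90 on the quiescent arrays. PRI-724 and vehicle arrays did not overlap, and their difference was 0.91 ± 0.37 (limma adjusted p = 0.281). Sesn2 encodes a leucine-sensing protein that restrains the growth kinase complex mTORC1. Sesn2 (probe set 17430861) read 9.49 and 8.41 on the old and young PRI-724 arrays, 8.75 and 8.04 on the vehicle arrays, and 9.80 and 8.85 on the quiescent arrays. It was the only member whose PRI-724 and vehicle arrays overlapped, the old vehicle array being above the young PRI-724 array, and its difference of 0.55 ± 0.26 was the smallest of the 10 (limma adjusted p = 0.340).

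**Figure D2:**
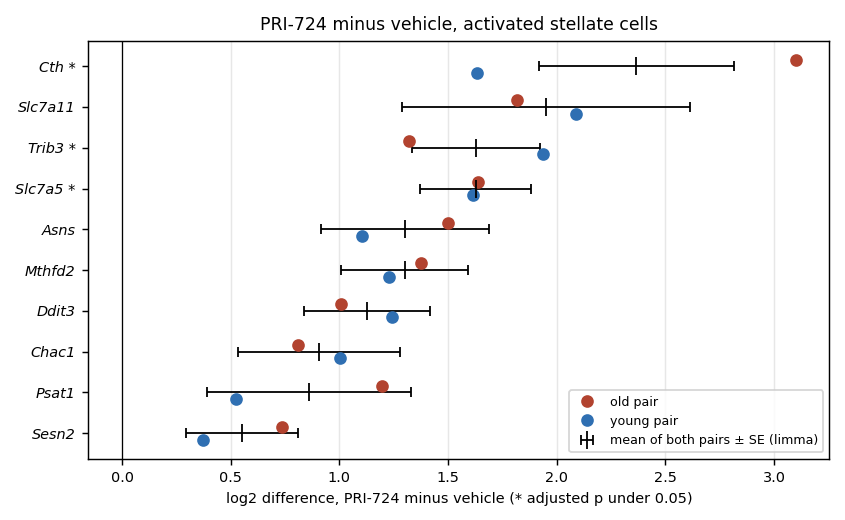
PRI-724 minus vehicle difference in log2 signal for each of the 10 genes, with the old and young pairs as points and the mean ± SE of limma as a bar, and a star where the adjusted p is under 0.05. All 20 points are above 0, Cth has the highest mean and the widest gap between the ages among the called genes, and Sesn2 has the lowest mean.

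As a group, 3 of the 10 genes were called higher and 0 lower in PRI-724 cells, where 0.271% of all tested genes were called higher and 1.93% lower. At an unadjusted p under 0.05 limma gave 8 of the 10, and 15.5% of all genes. Members at least 2-fold higher in both pairs numbered 7, against 0.367% of all genes, and 9 had both PRI-724 arrays above both vehicle arrays, against 18.2% of all genes. The calls depended on single arrays. Without the old or the young PRI-724 array no member was called by limma, with 7 and 6 of the 10 at an unadjusted p under 0.05, and without the young PRI-724 array no gene at all was called, with 997 at that unadjusted p. Without the old vehicle array Cth was lost (1.42, adjusted p = 0.0577), and without the young vehicle array Trib3 was lost (adjusted p = 0.275) while Cth stood at 3.31. Without either quiescent array 6 members were called. Normalising the arrays further left 1 call with cyclic loess (Slc7a5, adjusted p = 0.0462) and 0 with quantile normalisation, where limma gave 9 of the 10 at an unadjusted p under 0.05 and the median difference was 1.60. All 10 genes had a higher mean in PRI-724 than in vehicle cells under each of the alternatives that were run.

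In the same comparison 8 of 10 macrophage markers and 8 of 8 sinusoidal endothelial markers were called lower, with medians of -2.78 and -3.37. Stellate markers had a median of -1.42, with 2 of 8 called lower (Lrat and Tcf21). Both of these calls were lost without the young PRI-724 array. That of Lrat was also lost without the young vehicle array, and that of Tcf21 without the old PRI-724 array. Hepatocyte markers had a median of -0.01 in the old pair and 1.27 in the young pair, with 0 of 8 called by limma (3 at an unadjusted p under 0.05). In the old pair the hepatocyte markers ran from -0.68 (Ttr) to 0.99 (Serpina1c). The part of the change in hepatocyte, endothelial, macrophage and stellate markers in the values of the 10 genes was not tested.

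Other genes of the pathway were taken from lists chosen for their roles, also with earlier results of these data known. Among the kinases and the control of eIF2 alpha, 0 of 7 genes were called in PRI-724 minus vehicle (limma, 3 at an unadjusted p under 0.05), and the median was -0.34. Atf4 itself read 9.28 and 9.28 on the old and young PRI-724 arrays, 8.87 and 8.54 on the vehicle arrays, and 9.75 and 9.52 on the quiescent arrays. Its PRI-724 minus vehicle difference of 0.58 ± 0.25 did not pass (limma adjusted p = 0.301). Ppp1r15a, or GADD34, which brings a phosphatase to eIF2 alpha, differed by 0.61 ± 0.27 (adjusted p = 0.315). Eif2ak2, the kinase PKR that senses double-stranded RNA, differed by -1.05 ± 0.33 (adjusted p = 0.161). Of the 6 bZIP partners and feedback regulators limma called 0 (2 at an unadjusted p under 0.05), 4 were higher at both ages and the median was 0.39. Nupr1, a stress-induced chromatin protein, differed by 1.22 ± 0.34 (adjusted p = 0.114), and Atf5, a relative of ATF4, by 0.77 ± 0.30 (adjusted p = 0.259).

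Of 6 further amino acid transporters, 5 were higher at both ages with a median of 0.93, and 1 was called higher. These counts include Slc7a3, described below. The call was Slc3a2, the heavy chain partner of Slc7a5 and Slc7a11, which is outside the rule for named genes here and was picked after its values were seen. Slc3a2 read 11.36 and 11.53 on the old and young PRI-724 arrays, 10.50 and 10.55 on the vehicle arrays, and 11.39 and 11.78 on the quiescent arrays. Both vehicle arrays were lower than the other 4, and PRI-724 minus vehicle was 0.91 ± 0.18 (limma adjusted p = 0.0314). That call was lost without the young vehicle array (adjusted p = 0.141), the old PRI-724 array (0.107) or the young PRI-724 array (0.562). Slc7a1, which imports arginine and lysine, differed by 0.95 ± 0.30 (adjusted p = 0.159). Slc7a3, another importer of these, read 6.53 and 5.17 on the old and young PRI-724 arrays, 4.81 and 4.55 on the vehicle arrays, and 4.81 and 4.61 on the quiescent arrays. Its vehicle and quiescent signals were near 4.70, so it was kept for testing through its PRI-724 arrays, and its difference is given with no test. Slc1a4, a carrier of alanine, serine and cysteine, differed by 1.15 ± 0.39 (adjusted p = 0.197).

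Of 10 other enzymes of amino acid and one-carbon metabolism 8 were higher at both ages in PRI-724 cells and 0 lower at both, with a median of 0.89 and 0 calls by limma (6 at an unadjusted p under 0.05). Aldh1l2, a mitochondrial folate dehydrogenase, differed by 1.34 ± 0.34 (adjusted p = 0.0848). Phgdh and Psph, which carry out the first and last steps of serine synthesis around Psat1, differed by 1.26 ± 0.30 and 1.0 ± 0.28 (adjusted p = 0.0664 and 0.111). Of 11 tRNA synthetases known as ATF4 targets, 9 were higher at both ages and 0 lower at both, the median was 0.45 and limma called 0 (5 at an unadjusted p under 0.05). Tars, the threonine enzyme, differed by 1.01 ± 0.29 (adjusted p = 0.119) and Nars, the asparagine enzyme, by 0.98 ± 0.22 (adjusted p = 0.0605). The 7 other cytosolic synthetases had a median of 0.01, with 3 higher at both ages, 2 lower at both, and none at an unadjusted p under 0.05. The difference between these lists was not tested.

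Lists from other stress programmes were taken in the same way. The 14 ER chaperones and genes of the XBP1 branch had a median of -0.28, with 1 higher at both ages and 3 lower at both. Edem1, which takes misfolded proteins to degradation, differed by -0.87 ± 0.37 (adjusted p = 0.294). The 7 Nrf2 antioxidant genes had a median of 0.00, or 0.16 in the old pair and -0.17 in the young pair. Of these 7, 0 were higher at both ages and 2 were lower at both. Slc7a11 is also known as an Nrf2 target. The 7 p53 targets had a median of -0.24. Sesn2, also known as a p53 target, differed by 0.55. The part of Nrf2 and p53 in the values of Slc7a11 and Sesn2 was not tested. The 9 other outputs of the integrated stress response had a median of 0.31, or 0.19 in the old pair and -0.03 in the young pair. Of these 9, 4 were higher at both ages and 1 was lower at both. The lower one was Tnfrsf10b, whose difference of -0.92 ± 0.47 was the largest in size of the list (limma adjusted p = 0.386). The 9 dissociation and immediate early genes had a median of -0.06 and held genes on both sides. The heat shock genes Hspa1a (0.83 in the old pair, 1.64 in the young pair, adjusted p = 0.215) and Hspa1b (0.88 and 1.45, adjusted p = 0.170) differed by 1.24 ± 0.44 and 1.16 ± 0.37, close to the median of the 10 genes, while Dusp1, a phosphatase of MAP kinases, differed by -0.98 ± 0.24 (adjusted p = 0.0795). The part of this stress signal in PRI-724 cells in the values of the 10 genes was not tested. Limma called 0 genes in each of these 5 lists, in which 2, 0, 1, 1 and 4 genes had an unadjusted p under 0.05 in the order given.

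**Figure D3:**
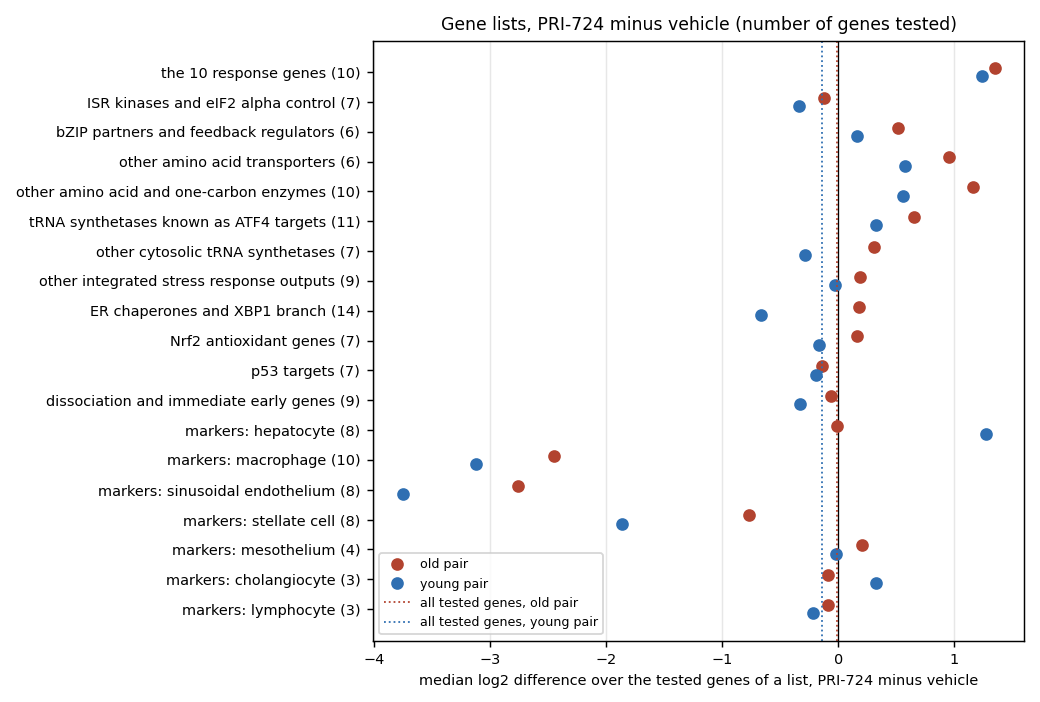
Median PRI-724 minus vehicle difference in log2 signal for the 10 genes and each other list, with the old pair and the young pair as separate points, and dotted lines at the medians of all tested genes. The 10 genes lie furthest to the right at 1.35 (old pair) and 1.23 (young pair), apart from the hepatocyte markers of the young pair at 1.27, and the macrophage and sinusoidal endothelial markers lie below -2.

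In vehicle cells, activated by culture, all 10 genes were lower than in quiescent cells in the old pair, and 5 of the 10 were lower in the young pair. Mthfd2 and Slc7a5 fell (2 of 10 called, where 1.26% of all genes were called lower), and 0 of the 10 were called higher, where 4.61% of all genes were. Mthfd2 fell by 1.44 ± 0.29 (SE, n = 2 pairs; limma adjusted p = 0.0225), with differences of -1.81 in the old pair and -1.06 in the young pair. Slc7a5 fell by 1.29 ± 0.26 (limma adjusted p = 0.0206), with -1.64 in the old pair and -0.94 in the young pair. The median over the 10 genes was -0.81, made up of -1.19 in the old pair and -0.38 in the young pair, against 0.04 for all genes.

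Both vehicle arrays were below both quiescent arrays for 5 genes, Trib3, Slc7a5, Mthfd2, Ddit3 and Sesn2, and 24.9% of all genes had such a pattern. These were the same 5 that were lower at both ages, as were 33.4% of all genes. Only Mthfd2 was at least 2-fold lower in both pairs, against 1.15% of all genes. Ddit3 differed by -0.93 ± 0.29 (limma adjusted p = 0.0929), with -0.60 in the old pair and the larger difference, -1.27, in the young pair. Sesn2 differed by -0.93 ± 0.26 (adjusted p = 0.0656) and Trib3 by -0.70 ± 0.29 (adjusted p = 0.195). At an unadjusted p under 0.05 limma gave 6 of the 10, and 22.4% of all genes.

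The other 5 genes went opposite ways at the 2 ages. Slc7a11 differed by -1.20 in the old pair and 1.95 in the young pair, and Psat1 by -0.65 and 1.70. Asns differed by -1.17 in the old pair and 0.58 in the young pair. Cth and Chac1 differed by -2.19 and -1.28 in the old pair and were nearly level in the young pair, at 0.12 and 0.05. For each of the 5 the old quiescent array was above the young quiescent array, by 1.79 (Chac1) to 2.96 (Cth).

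**Figure D4:**
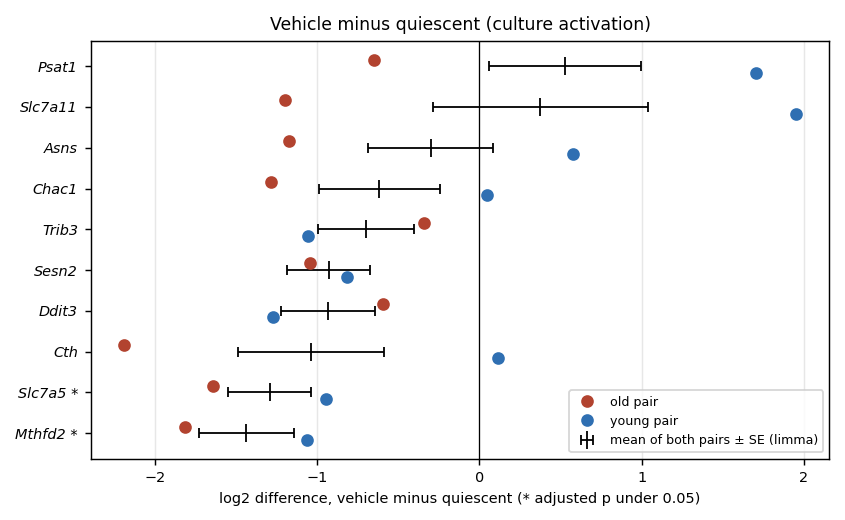
Vehicle minus quiescent difference in log2 signal for each of the 10 genes, with the old and young pairs as points and the mean ± SE of limma as a bar, and a star where the adjusted p is under 0.05. Every old pair is below 0, Mthfd2 and Slc7a5 carry the stars, and the young pairs of Slc7a11 and Psat1 are above 1.

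Both calls in vehicle minus quiescent were lost when any 1 of 4 arrays was left out. The adjusted p of Slc7a5 was 0.218 without the old quiescent array, 0.0561 without the old vehicle array and 0.0614 without either PRI-724 array, and that of Mthfd2 was 0.299, 0.108 and about 0.058. Without the old quiescent array, Slc7a11 (2.02, adjusted p = 0.00307) and Psat1 (1.53, adjusted p = 0.0285) were called higher instead. Without the young quiescent array Cth was called lower (-1.82, adjusted p = 0.00409), and without the young vehicle array too (-1.98, adjusted p = 0.00841). In the same comparison the hepatocyte markers had a median of -2.29 in the old pair and -1.0 in the young pair, with 3 of 8 called lower (Alb, Ahsg and Serpina1c) and all 8 lower at both ages. Stellate markers had a median of 1.96 with 7 of 8 called higher. The macrophage median was -0.09, made up of -0.72 in the old pair and 0.42 in the young pair. The sinusoidal endothelial median was 0.16, made up of 0.90 and -0.24. Called higher were 1 of 10 macrophage markers (Vsig4) and 2 of 8 endothelial markers (Oit3 and Kdr). The calls of Vsig4 and Kdr were lost without the young vehicle array. The part of the hepatocyte, stellate, macrophage and endothelial signals in the values of the 10 genes was not tested.

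Upstream of the 10 genes, Atf4 differed between vehicle and quiescent cells by -0.93 ± 0.25, with -0.88 in the old pair and -0.98 in the young pair (limma adjusted p = 0.0573). Ppp1r15a fell by 1.27 ± 0.27 (adjusted p = 0.0259), the only call among the 7 genes of eIF2 alpha control, a call that ended without either quiescent or either vehicle array. Atf3, a stress-induced transcription factor downstream of ATF4, fell by 1.13 ± 0.27 (adjusted p = 0.0402) as the only call of 6 bZIP partners, and this call ended without any 1 of the 6 arrays. Slc3a2 fell by 1.05 ± 0.18 (adjusted p = 0.0115), the only call of 6 further transporters, with adjusted p = 0.059 and 0.0596 without the old and the young PRI-724 array. Limma called 0 of the 10 other enzymes (0 at an unadjusted p under 0.05), which had a median of -0.50 in the old pair and 0.34 in the young pair, and 0 of the 11 synthetases (0 unadjusted), at -0.65 and 0.02. Of 9 immediate early and heat shock genes known to rise when cells are dissociated, 3 were called lower in vehicle cells (Hspa1b, Hspa1a and Fosb), 7 were lower at both ages and 1, Ier2, was higher at both, with differences of -3.55 ± 0.37 for Hspa1b and -3.20 ± 0.44 for Hspa1a. The calls of Hspa1a and Fosb were lost without either PRI-724 array, and that of Fosb also without the young quiescent or the young vehicle array. The part of this stress signal in the values of the 10 genes was not tested.

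Between PRI-724 and quiescent cells 0 of the 10 genes passed the test, where 1.28% of all genes were called higher and 2.43% lower, and limma gave 5 at an unadjusted p under 0.05, as it did for 16.3% of all genes. Trib3, Slc7a11, Asns, Cth and Psat1 were higher at both ages, as were 30.8% of all genes, and Sesn2 was lower at both, as were 24.9% of all genes. The median of the 10 was 0.63, or 0.37 in the old pair and 0.97 in the young pair, against 0.03 for all genes. Trib3 and Slc7a11 had both PRI-724 arrays above both quiescent arrays (19.6% of all genes did). Slc7a11 had the largest mean, 2.33 ± 0.66 (limma adjusted p = 0.0929), made up of 0.62 in the old pair and 4.04 in the young pair. Trib3 was more even, at 0.98 in the old pair and 0.88 in the young pair (0.93 ± 0.29, adjusted p = 0.131). Psat1 differed by 1.39 ± 0.47 (adjusted p = 0.157), Cth by 1.33 ± 0.45 (0.158) and Asns by 1.0 ± 0.39 (0.222).

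The means of the remaining 5 members in PRI-724 cells were within 0.38 log2 units of their quiescent means. Slc7a5 differed by 0.34 ± 0.26, Ddit3 by 0.19 ± 0.29, Chac1 by 0.29 ± 0.37, Mthfd2 by -0.14 ± 0.29 and Sesn2 by -0.38 ± 0.26, with adjusted p between 0.557 and 0.910. Slc7a5 on the old arrays was 10.77 with PRI-724 and 10.78 in quiescent cells. Without the old quiescent array Slc7a11, Psat1, Cth and Asns were called higher, and without either vehicle array Slc7a11, Psat1 and Cth were. Among the related lists, Aldh1l2 was the only call of the 10 other enzymes (1.57 ± 0.34, adjusted p = 0.0346, lost without either PRI-724 array), and Atf3 fell by 1.35 ± 0.27 (adjusted p = 0.0245, lost without the young quiescent or either PRI-724 array). All 10 macrophage markers and 6 of 8 sinusoidal endothelial markers were called lower in this comparison. The hepatocyte markers had a median of -2.26 in the old pair and 0.10 in the young pair, with 1 of 8 called lower (Serpina1c), and the stellate markers a median of 0.98, with 2 of 8 called higher (Des and Acta2). These 3 calls, like that of Aldh1l2, were lost without either PRI-724 array, and that of Serpina1c also without the old quiescent array. The calls of the macrophage markers Adgre1, Clec4f, Vsig4, Cd5l, Marco, C1qa, C1qb, C1qc and Csf1r were also lost without either PRI-724 array. The 9 dissociation and immediate early genes had a median of -1.14, with 7 lower at both ages and 1 higher at both. Of these 9, 4 were called lower, Hspa1b, Hspa1a and Dusp1 among them, calls that were lost without either PRI-724 array. The part of the macrophage, endothelial, hepatocyte and stellate markers and of this stress signal in the values of the 10 genes was not tested. PRI-724 minus quiescent shares its arrays with the comparisons above and is not a separate observation.

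Cells of old mice had more signal than cells of young mice in all 3 states for 8 of the 10 genes, as did 21% of all genes, the exceptions being Slc7a11 and Ddit3. None of the 10 passed the test over the 3 states (limma, 0 called), where 0.264% of all genes were called higher and 0.251% lower, and 8 of the 10 had an unadjusted p under 0.05, as did 10.4% of all genes. The median of the 10 was 0.91, against 0.04 for all genes. Cth was nearest to the threshold at 1.91 ± 0.37 (SE, n = 3 states; limma adjusted p = 0.0646), with old minus young at 2.12 with PRI-724, 0.66 with vehicle and 2.96 in quiescent cells. Slc7a5 differed by 0.94 ± 0.21 (adjusted p = 0.110), 0.72 with PRI-724, 0.70 with vehicle and 1.39 in quiescent cells. Sesn2 differed by 0.92 ± 0.21 (adjusted p = 0.118) and was even over the states, at 1.08, 0.72 and 0.95 in the same order.

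The age difference was widest in quiescent cells. There, 9 of the 10 genes were higher in old cells (53.7% of all genes were) and 7 were at least 2-fold higher (3.16% of all genes), with a median of 1.59. In vehicle cells 9 were higher (50.7% of all genes) and 1 at least 2-fold higher (1.15%), with a median of 0.53. In PRI-724 cells 9 were higher (60.7%) and 3 at least 2-fold higher (5.46%), with a median of 0.74. Slc7a11 differed by 2.83 in quiescent cells but by -0.59 with PRI-724 and -0.31 with vehicle. Psat1 differed by 2.77 and Asns by 2.17 in quiescent cells, against 1.09 and 0.82 with PRI-724 and 0.42 and 0.42 with vehicle. Ddit3 was the only gene lower in old quiescent cells, at -0.24. Whether the age difference itself differs between states was not tested, since each state has 1 array of each age.

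**Figure D5:**
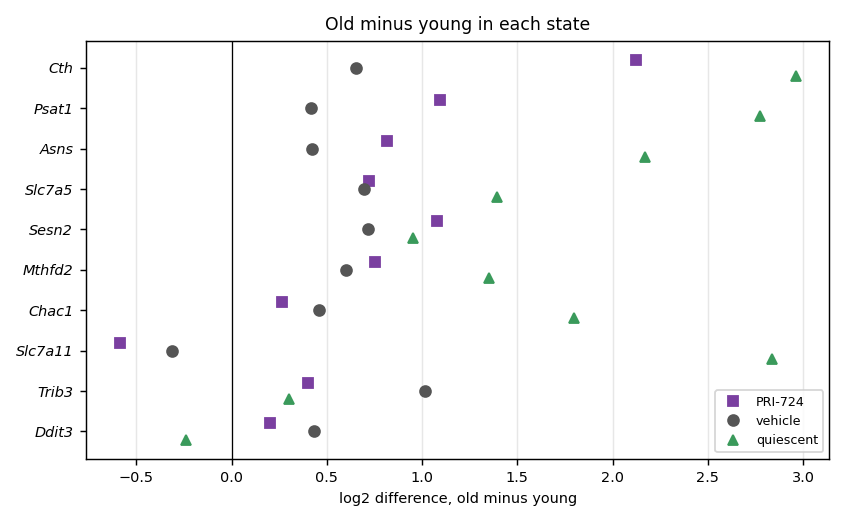
Old minus young difference in log2 signal for each of the 10 genes in PRI-724 cells (squares), vehicle cells (circles) and quiescent cells (triangles). The triangles of Cth, Slc7a11, Psat1 and Asns lie above 2, and only Slc7a11 and Ddit3 have symbols below 0.

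Hepatocyte markers moved with age too. Old minus young over the 8 markers had a median of 0.78 with PRI-724, 1.88 with vehicle and 3.05 in quiescent cells, and 3 of 8 were called higher in old cells (Serpina1c at 3.07, Ahsg at 2.56 and Alb at 2.31, calls that ended without either PRI-724 array). Cth is known to be strongly expressed in hepatocytes. The 10 genes had medians of 0.74, 0.53 and 1.59 in the same order of states. Other markers differed by age as well, with 0 called in each list. In the same order of states, the sinusoidal endothelial medians were 0.77, -0.41 and -1.51. The macrophage medians were 0.05, -0.44 and 0.62, and the stellate medians were 1.25, 0.36 and 0.42. The part of the hepatocyte, endothelial, macrophage and stellate signals in the age difference was not tested. Among the related lists limma called 0 genes by age, with median old minus young differences of 0.85 over 10 other enzymes, 0.46 over 11 synthetases and 0.45 over 6 other transporters, of which 8, 4 and 3 had an unadjusted p under 0.05.

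The members were also set against each other over the 6 arrays, as a description in which all points share the arrays and their normalisation. The mean of the 10 genes, each centred on its own mean, was 1.04 and 0.35 on the old and young PRI-724 arrays, -0.41 and -0.92 on the vehicle arrays, and 0.78 and -0.85 on the quiescent arrays. Cth (Pearson r = 0.973), Asns (0.967), Chac1 (0.942) and Slc7a5 (0.931) followed the mean of the other 9 most closely. Ddit3 (0.585), Sesn2 (0.697) and Slc7a11 (0.699) followed it least.

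Among 3057 other genes that varied by an SD of at least 0.5 log2 units, the 10 most like the members' mean over the 6 arrays were Dus4l (r = 0.979), Tars (0.976), Pck2 (0.972), Olfr1454 (0.971), Shmt2 (0.963), Iars (0.962), Mettl1 (0.957), Klf4 (0.950), Bcat1 (0.948) and Psph (0.947). Of these, 5 were on the lists of pathway genes, Tars and Iars among the synthetases and Pck2, Shmt2 and Psph among the enzymes. Dus4l and Mettl1 modify tRNA, Bcat1 transaminates branched-chain amino acids, and Klf4 is a zinc finger transcription factor. The symbol Olfr1454 names an olfactory receptor and is given as the platform's annotation has it. Of the 5 not on the lists, Klf4 (1.40 ± 0.29, adjusted p = 0.0410) and Olfr1454 (1.79 ± 0.33, adjusted p = 0.0253) were called higher in PRI-724 than in vehicle cells, while Bcat1 (1.38 ± 0.40, adjusted p = 0.121), Dus4l (1.20 ± 0.28, adjusted p = 0.0639) and Mettl1 (0.74 ± 0.28, adjusted p = 0.244) were not. Their likeness was used to pick them, so these differences are a description. The share of pathway list genes among all 3057 was not counted. Some pathway genes ranked lower, such as Slc3a2 (r = 0.364, rank 475). In the same ranking the 8 hepatocyte markers ran from r = 0.739 (Ahsg, rank 69) to 0.363 (Cps1, rank 477). The part of the hepatocyte signal in this likeness was not tested.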

How the data were processed

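Transcript levels were measured with 1 Affymetrix array for each of 6 groups, labelled with the GeneChip WT PLUS kit per the labels' protocols. The deposited values are log2 signals that the authors made with Affymetrix Expression Console and RMA, per the submitters' processing notes; the sources used here give no versions, options or genome build, so no probe coordinates are printed. Of 41345 probe sets, 23521 name 1 gene symbol, 1814 several and 16010 none, and only the first kind was used. The probe set with the highest mean over the 6 arrays stood for a gene (22180 genes), and the 30% with the lowest mean (log2 under 4.70) were left out, leaving 15526. A model of age and state was fitted with limma 3.58.1 (R 4.3.3), with an intensity trend and 2 residual degrees of freedom, and adjusted by Benjamini-Hochberg over all tested genes at 0.05. The model was tested on simulated data.

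Alternatives were no filter, a 50% filter, the mean of a gene's probe sets, no trend, no age (or state) term, only the arrays compared, cyclic loess, quantile normalization, and each array left out. The members and lists were chosen with earlier results of these data known. Named genes were the members, Atf4, up to 3 genes of each list with the largest mean difference in a comparison, and the 10 genes most correlated with the members' mean. The p-values rest on how far these pooled samples depart from a model of age and state, and not on a spread within a group, which is not known. Promoter sequences are RefSeq's. Python 3.11.15 with pandas 2.3.3 was used for tables and matplotlib 3.10.9 for figures.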

Additional observations from a re-analysis of the deposited data

Results flagged for a closer look

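For 8 of the 10 genes the old pair and the young pair moved opposite ways in a comparison with quiescent cells. None of these age differences was tested, since each age has 1 array in each state. The value given is the difference of the old pair minus that of the young pair.

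In vehicle minus quiescent, the cystine importer Slc7a11 stood at -3.15 (old pair -1.20, young pair 1.95) and the serine synthesis gene Psat1 at -2.35 (old -0.65, young 1.70). Cth stood at -2.31 (old -2.19, young 0.12), Asns at -1.75 (old -1.17, young 0.58) and Chac1 at -1.33 (old -1.28, young 0.05). In PRI-724 minus quiescent, Chac1 stood at -1.53 (old -0.48, young 1.05), Slc7a5 at -0.67 (old -0.0020, young 0.67), Mthfd2 at -0.60 (old -0.44, young 0.16) and Ddit3 at 0.44 (old 0.41, young -0.03). No gene had opposite signs in PRI-724 minus vehicle.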

How the results depend on the processing

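With 1 array in each group, calls depended on the settings more than directions did. Over the 10 genes and 4 comparisons, 463 values under an alternative kept their direction and their side of the threshold, 41 passed it only there, 29 no longer passed and 17 changed sign. The cause was not tested. Most of the 463 were values not called in the main fit either. The 29 all came from the few that were, Cth, Trib3 and Slc7a5 in PRI-724 minus vehicle and Mthfd2 and Slc7a5 in vehicle minus quiescent. Members called in PRI-724 minus vehicle numbered 3, against 0 with no age term, 6 with only the arrays compared, 1 with cyclic loess, 0 with quantile normalization and 0 to 6 with each array left out. In vehicle minus quiescent 2 were called, against 0 with no age term, 0 with only the arrays compared and 0 to 3 with an array left out. In PRI-724 minus quiescent 0 were called, against 4 with only the arrays compared and 0 to 4 with an array left out, and in old minus young 0, against 0 to 4.

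Over all tested genes, PRI-724 minus vehicle had 341 calls, against 91 with no age term, 965 with only the arrays compared, 103 with cyclic loess, 84 with quantile normalization and 0 to 968 with an array left out. Vehicle minus quiescent had 911, against 114, 481, 482 and 331 in the same order and 318 to 1230. PRI-724 minus quiescent had 577, against 217 with no age term, 1064 with only the arrays compared and 0 to 1053. Old minus young had 80 (41 higher), against 0 with no state term, 7 (2 higher) with cyclic loess, 12 (4 higher) with quantile normalization and 0 to 343.

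The sign of Ddit3 in old minus young turned with cyclic loess (-0.023). With an array left out, signs turned within these ranges. Vehicle minus quiescent ran from -1.08 to 0.48 for Asns, -1.33 to 0.099 for Chac1, -0.48 to 1.53 for Psat1 and -1.27 to 2.02 for Slc7a11. PRI-724 minus quiescent ran from -0.43 to 1.0 for Chac1, -0.085 to 0.47 for Ddit3, -0.47 to 0.20 for Mthfd2 and -0.0076 to 0.68 for Slc7a5. Old minus young ran from -0.020 to 0.32 for Ddit3 and -0.45 to 1.26 for Slc7a11. The members' median in PRI-724 minus vehicle was 1.5 with cyclic loess, 1.60 with quantile normalization and 1.12 to 1.57 with an array left out. These 2 normalizations shifted array medians by -0.14 (young vehicle, quantile) to 0.14 (young PRI-724, quantile). The model pairs the arrays by age, and the fit with no age term is the unpaired one.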

Other observations

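Slc7a11 was the only member with another probe set naming it alone. That probe set was dimmer and read 6.54 and 5.42 on the old and young PRI-724 arrays, 4.84 and 4.90 on the vehicle arrays, and 5.50 and 4.08 on the quiescent arrays. Both PRI-724 arrays were above both vehicle arrays here too, and the young quiescent array was again the lowest. The 2 probe sets differed by age with PRI-724. Here the old PRI-724 array was above the young one, whereas the main probe set read 9.57 and 10.16. The gap between PRI-724 and vehicle was wider in the old pair here, and in the young pair with the main probe set. With the mean of both probe sets, PRI-724 minus vehicle was 1.53 (limma adjusted p = 0.161).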
